A study of Mus musculus with 5 samples.

Results

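Ribosome biogenesis begins in the nucleolus, where RNA polymerase I transcribes the ribosomal DNA into a long precursor. Small nucleolar ribonucleoproteins (snoRNPs) and the small-subunit processome modify, fold and cut that precursor, and assembly factors then build and release the small and large subunits. Growth factor signals through mTOR and MYC are known to raise this pathway in dividing cells. The 44 genes described here were taken by symbol from the 29495 genes in the count tables. The rule sets no threshold on a measured value, but the list was drawn up with earlier results of these data known. They comprise 10 genes of the polymerase I step, 16 of precursor processing and 18 of subunit assembly. All 44 had counts in every library and passed the filter on low counts.

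The libraries came from mouse glioma cells (p53-/-;NF1-/-;tdTomato+/-), of a tumor model with a mixed background (CD-1 and C57BL/6), grown with olfactory bulb (OB) neurons of C57BL/6 pups of postnatal day 2 to 3. Of the co-cultures, 3 were kept overnight with IGF-1 (insulin-like growth factor 1) at 20 ng/mL and are numbered 3, 4 and 5, and 2 controls, numbered 1 and 2, had no added IGF-1. The glioma cells were then sorted on tdTomato, and polyadenylated RNA was sequenced. All libraries share the genotype and the co-culture, and the plating medium of the neurons contained insulin and serum. The promoter or cell type that drove the deletions, and whether the cells are 1 clone, are not given in the sources used here.

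Libraries held 16944315 to 20144181 counts. Since no label says that cultures were separate, p-values reflect the spread of these libraries alone, and that spread may be technical. In sorted bulk cells, fewer cells that express a gene and less of its RNA per cell cannot be told apart. All 5 oligodendrocyte progenitor markers were present, with a summed level of 3046 to 3527 CPM (counts scaled to library size with TMM factors) with IGF-1 and 2898 to 3012 CPM in the controls. Sums over 7 neuronal markers were 8.48 to 14.7 CPM with IGF-1 and 7.62 to 8.03 CPM in the controls, with the defining marker Rbfox3 at 0 counts in 4 of 5 libraries. Microglial markers (4 genes) summed to 0.636 to 0.771 CPM with IGF-1 and 0.531 to 0.923 CPM in the controls, and endothelial markers (3 genes) to 0.685 to 1.48 CPM with IGF-1 and 1.1803 to 1.21 CPM in the controls. Oligodendrocyte markers (4 genes) summed to 777 to 955 CPM with IGF-1 and 864 to 866 CPM in the controls, and astrocyte markers (4 genes) to 82.1 to 106 CPM with IGF-1 and 88.3 to 93.2 CPM in the controls. The part of other cell types in the results was not tested. IGF-1 replicate 5 stood apart on the first principal component (35.2% of the variance), so the results below are given with and without it.

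With IGF-1, 3 of the 44 genes rose and 0 fell at an adjusted p under 0.05 in edgeR's quasi-likelihood test. Among all 15919 genes tested, 0.685% were called higher and 0.339% lower, and 1.1% were called higher among the 9779 genes with a mean of at least 10 CPM. The 3 were Rrs1, Rrp1b and Nop2, all of large-subunit assembly. Before adjustment (p under 0.05), 16 members were higher and 0 lower, against 7.1% higher and 5.57% lower among all genes, and DESeq2 called 6 higher and 0 lower (1.39% and 0.581% of the genes it tested). Without IGF-1 replicate 5, 24 of the 44 rose and 0 fell, against 5.49% and 3.65% of 15573 genes, or 8.45% and 4.77% of those with at least 10 CPM. The count fell to 0 without either control library, when 0 of 16703 or 16661 genes were called higher at all (680 and 546 before adjustment). It was 0 without IGF-1 replicate 4 (0.224% of all genes higher) and 1 (Rrp1b) without IGF-1 replicate 3 (0.186%). Below, a rise without replicate 5 is the edgeR call. Of those 24 genes, DESeq2 without replicate 5 called 16 higher (2.91% of the genes it tested). It did not call Polr1b, Polr1e, Rrn3, Mybbp1a, Nop14, Rrp12, Ltv1 and Noc3l.

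Log2 changes of the 44 members (IGF-1 minus control) ran from -0.17 for Nhp2 to 0.49 for Rrs1, with a median of 0.11, and 33 were above 0. Over all genes tested the median was -0.01, and 48.3% were above 0. The changes were therefore small, below 1.5-fold even for Rrs1. In 19 members every IGF-1 library lay above both controls, and in 0 every IGF-1 library lay below them. Of all tested genes 16.2% lay above and 16.9% below in this way, and 20.2% lay above among the 9779 genes with a mean of at least 10 CPM. The median of the members over the control mean was 0.19 in IGF-1 replicate 3, 0.17 in replicate 4 and -0.03 in replicate 5.

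**Figure D1:**
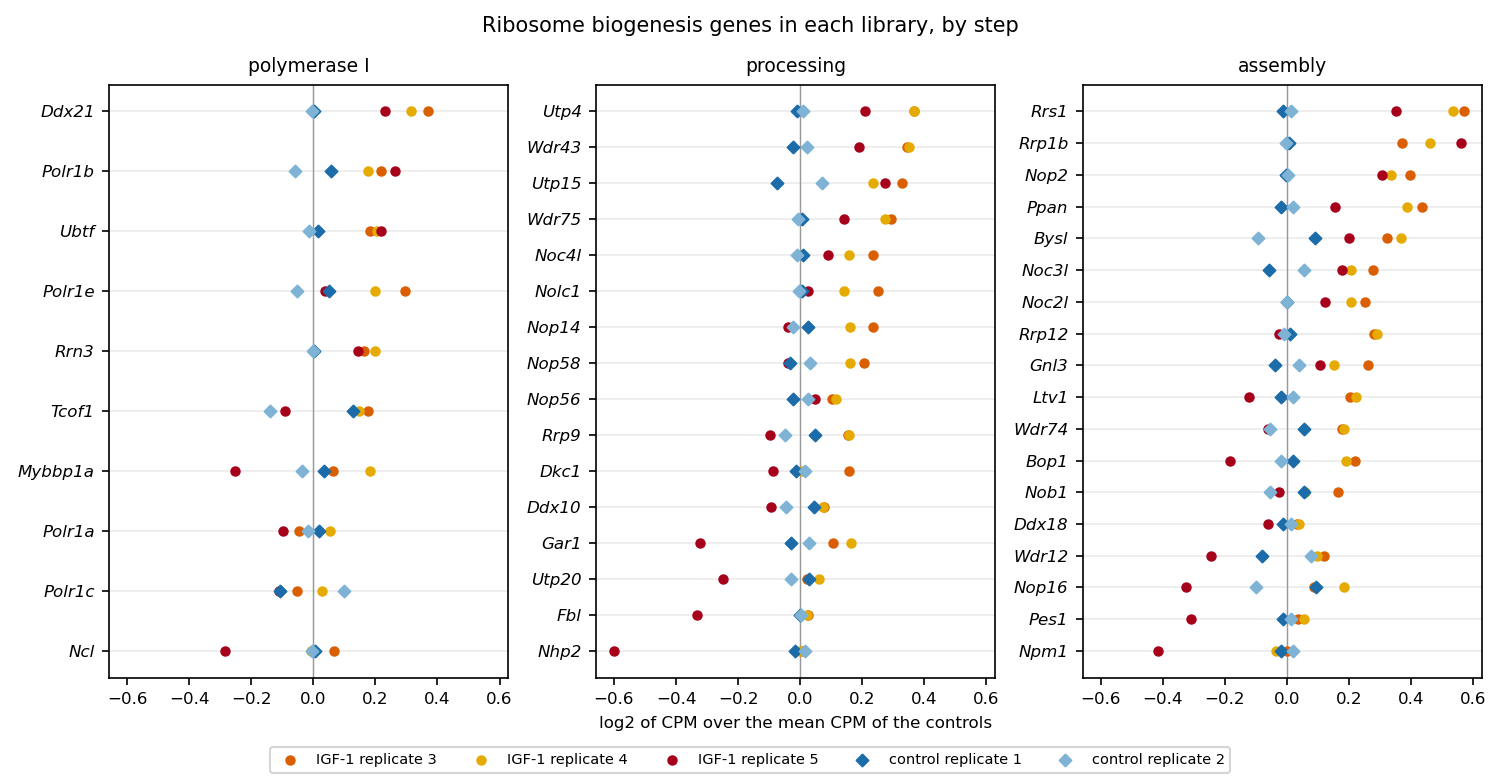
Each row is a gene and each point a library, placed by the log2 of its CPM over the mean CPM of the 2 controls (circles, IGF-1; diamonds, controls), in panels by step. In IGF-1 replicates 3, 4 and 5, 42, 41 and 20 of the 44 genes lie above the control mean. Of all 15919 genes tested, 7755, 7704 and 7705 do.

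Among the assembly genes, Rrs1, whose yeast homologue helps to bring the 5S ribonucleoprotein into the large subunit, changed most. Rrs1 had 96.5, 94.2 and 82.9 CPM in IGF-1 replicates 3, 4 and 5, against 64.4 and 65.6 CPM in control replicates 1 and 2. The IGF-1 libraries all lay well above the controls, although replicate 5 was the lowest of them. The log2 change was 0.49 (SE 0.08), with an adjusted p of 0.0217 by edgeR.

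Rrp1b, a homologue of the yeast large-subunit factor Rrp1, had 104, 111 and 119 CPM in IGF-1 replicates 3, 4 and 5, and 80.6 and 80.1 CPM in the controls. Here replicate 5 was the highest library, and the groups were separate. Its log2 change was 0.47 (SE 0.07, edgeR adjusted p = 0.0186), and 0.42 without replicate 5. An overlapping gene, Hsf2bp, is annotated on the opposite strand to Rrp1b, as some gene is for 17 of the 44 members (not for Rrs1 or Nop2), and the sources used here do not state whether counting used strand.

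Nop2, a cytosine methyltransferase of large-subunit rRNA, gave 128, 122 and 120.1 CPM in the IGF-1 libraries and 96.8 and 97.4 CPM in the controls. The controls were nearly equal and all IGF-1 libraries were higher, by 0.35 on the log2 scale (SE 0.06, edgeR adjusted p = 0.0342). All 3 genes lost the call, with an adjusted p of 0.386 to 0.545, when either control was left out, although their log2 changes stayed between 0.34 and 0.50. Without IGF-1 replicate 3 the adjusted p was 0.0965 for Rrs1, 0.0471 for Rrp1b and 0.138 for Nop2, and without replicate 4 it was 0.0957, 0.072 and 0.12 in the same order.

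**Figure D2:**
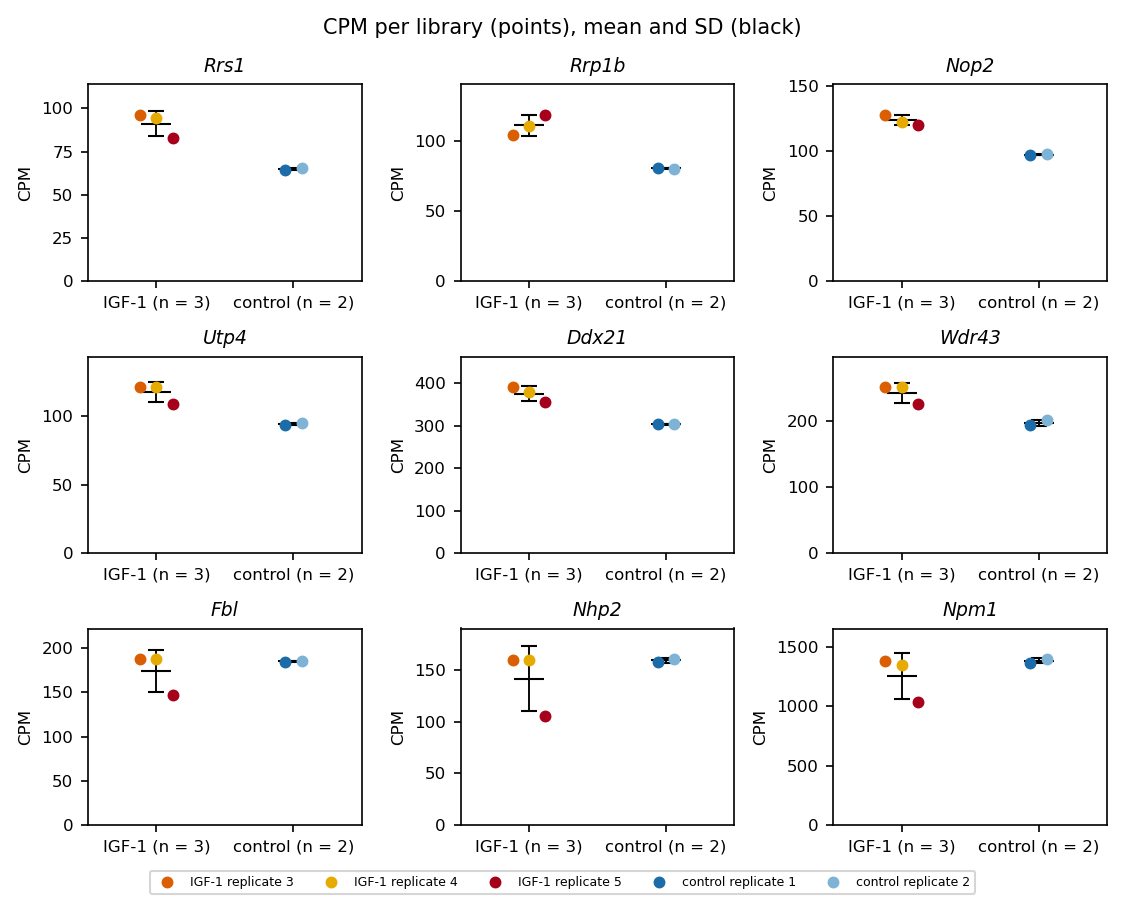
CPM of 9 members in each library (points), with the mean and SD of each group (black; IGF-1, n = 3; control, n = 2), on axes that start at 0. Rrs1, Rrp1b, Nop2, Utp4, Ddx21 and Wdr43 have every IGF-1 library above both controls, while IGF-1 replicate 5 is the lowest library for Fbl, Nhp2 and Npm1.

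Promoter windows, from 250 bases before to 50 bases after an annotated start, were found for 38 of the 44 genes in RefSeq (build GRCm38.p6, another build than that of the counts). They were searched on both strands for CACGTG, the canonical E-box that MYC with MAX can bind, and for CCGGAAGT, a core that ETS factors can bind. CACGTG was in a window of 8 of the 38 genes (21.1%), against 11.4% of 11122 tested genes with a window and 7.15% of all 32851 windows. CCGGAAGT was in a window of 10 of the 38 (26.3%), against 8.63% of tested genes and 3.89% of all windows. The motifs do not overlap each other in the windows printed. The sequences of 4 genes with changes above 0 and of Pes1, whose log2 change was -0.06, are shown to set the motif beside the values, with either motif in capitals. They were picked by hand among genes on the plus strand, so the share with a motif among them is not that of the 38.
Nop2, chr6:125131633-125131932, plus strand: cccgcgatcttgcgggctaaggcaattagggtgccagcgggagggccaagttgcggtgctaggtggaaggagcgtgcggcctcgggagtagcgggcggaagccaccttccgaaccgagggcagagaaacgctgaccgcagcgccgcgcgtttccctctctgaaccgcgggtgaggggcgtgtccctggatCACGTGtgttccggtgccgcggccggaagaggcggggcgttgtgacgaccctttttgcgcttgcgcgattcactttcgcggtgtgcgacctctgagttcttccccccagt
Rrp1b, chr17:32035912-32036211, plus strand: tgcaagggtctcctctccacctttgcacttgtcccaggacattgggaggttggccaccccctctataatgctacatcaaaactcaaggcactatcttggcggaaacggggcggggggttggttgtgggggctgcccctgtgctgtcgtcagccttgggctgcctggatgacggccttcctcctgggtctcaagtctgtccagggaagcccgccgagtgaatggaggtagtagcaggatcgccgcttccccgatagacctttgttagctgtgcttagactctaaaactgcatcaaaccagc
Utp4, chr8:106893390-106893689, plus strand: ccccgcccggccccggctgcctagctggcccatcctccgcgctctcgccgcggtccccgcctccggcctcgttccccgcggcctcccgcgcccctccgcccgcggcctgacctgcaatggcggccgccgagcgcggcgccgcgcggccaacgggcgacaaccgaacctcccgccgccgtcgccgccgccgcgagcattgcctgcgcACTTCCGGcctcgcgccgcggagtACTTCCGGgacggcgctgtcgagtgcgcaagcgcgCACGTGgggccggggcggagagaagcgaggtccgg
Wdr43, chr17:71615965-71616264, plus strand: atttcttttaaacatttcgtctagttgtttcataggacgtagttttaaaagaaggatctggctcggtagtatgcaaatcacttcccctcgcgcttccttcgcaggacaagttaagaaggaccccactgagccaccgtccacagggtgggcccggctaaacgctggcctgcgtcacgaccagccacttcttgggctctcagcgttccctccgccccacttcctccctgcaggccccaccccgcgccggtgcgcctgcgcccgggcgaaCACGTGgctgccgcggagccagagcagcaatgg
Pes1, chr11:3963725-3964024, plus strand: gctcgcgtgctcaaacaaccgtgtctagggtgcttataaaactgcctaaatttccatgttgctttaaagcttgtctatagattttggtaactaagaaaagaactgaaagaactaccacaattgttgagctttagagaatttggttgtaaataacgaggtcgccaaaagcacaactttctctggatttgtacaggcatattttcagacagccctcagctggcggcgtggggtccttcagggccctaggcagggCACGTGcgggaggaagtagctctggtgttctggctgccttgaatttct

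CACGTG begins at position 191 of the Nop2 window, 266 of Utp4, 268 of Wdr43 and 253 of Pes1. Neither motif is in the Rrp1b window shown, the upstream of 2 annotated for that gene, and Rrs1 has no entry. The other members with CACGTG were Ltv1, Mybbp1a, Rrn3 and Utp20. The 8 genes thus include Nop2, which rose, and Pes1 and Utp20, whose log2 changes were below 0 with all libraries.

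The other large-subunit genes ranged from Ppan to Npm1. Ppan, a homologue of yeast Ssf1, had 91.3, 88.3 and 75.1 CPM in IGF-1 replicates 3, 4 and 5 and 66.7 and 68.4 CPM in the controls (log2 0.33, SE 0.09, edgeR adjusted p = 0.141). Noc2l and Noc3l, which act as a pair in yeast, had log2 changes of 0.19 and 0.22. Noc2l had 233, 226 and 213 CPM with IGF-1 against 196 CPM in each control, and Noc3l had 57.4, 54.6 and 53.5 CPM against 45.5 and 49.2 CPM. Gnl3, the GTPase nucleostemin, had 184, 170.2 and 165 CPM with IGF-1, and 149 and 157 CPM in the controls (log2 0.17). CPM are given for these 4 genes because their groups did not overlap and they rose without IGF-1 replicate 5. That fit gave log2 changes of 0.41, 0.23, 0.24 and 0.21 (edgeR adjusted p of 4.13e-08 to 0.0141). None of the 4 passed the test with all libraries. DESeq2 without replicate 5 called Ppan, Noc2l and Gnl3 but not Noc3l.

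PES1, BOP1 and WDR12 form the PeBoW complex, which is needed to cut the large-subunit part of the precursor. Pes1 had 219.5, 223 and 173 CPM in IGF-1 replicates 3, 4 and 5, against 213 and 216 CPM in the controls. Bop1 had 153, 149.8 and 115 CPM with IGF-1 against 133 and 129 CPM in the controls. Wdr12 had 61.9, 60.9 and 48.1 CPM with IGF-1, and 53.8 and 60.1 CPM in the controls. For all 3, replicate 5 lay below both controls and replicates 3 and 4 lay above both. With all libraries their log2 changes were -0.06, 0.09 and -8.46e-04 (edgeR adjusted p of 0.775 to 0.998). Bop1 rose without replicate 5 (log2 0.21, adjusted p = 0.00103), and Pes1 (0.04) and Wdr12 (0.11) did not pass.

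Npm1, the abundant nucleolar chaperone nucleophosmin, had 1385.5, 1351 and 1037 CPM with IGF-1 and 1368 and 1402 CPM in the controls (log2 -0.14, edgeR adjusted p = 0.638). Replicate 5 was far below the others, and without that library the log2 change was -0.02. Processed pseudogenes of Npm1 exist, with which reads could be shared. Ddx18, the homologue of the yeast helicase Has1, was at 0.003 and Nop16 at -0.003 on the log2 scale. Wdr74, the member with the lowest summed count, had 34.8, 35.0 and 29.5 CPM with IGF-1, against 32.0 and 29.6 CPM in the controls (log2 0.10). In these 3 genes the groups overlapped.

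Of the small-subunit assembly genes, Bysl (bystin) had 60.6, 62.5 and 55.6 CPM with IGF-1, against 51.5 and 45.4 CPM in the controls. The groups were separate, but the controls differed by 0.18 on the log2 scale, and the change of 0.30 (SE 0.09) did not pass (edgeR adjusted p = 0.171). Rrp12, a factor of subunit export, had 36.2, 36.5 and 29.3 CPM with IGF-1 and 30.1 and 29.6 CPM in the controls (log2 0.19). Ltv1 was at 0.11 and Nob1, the nuclease that makes the mature end of small-subunit rRNA, at 0.07. Without IGF-1 replicate 5, Bysl (0.34), Rrp12 (0.28) and Ltv1 (0.21) rose by edgeR, and Nob1 (0.11) did not pass. DESeq2 without that library called Bysl but not Rrp12 or Ltv1.

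Over the 18 assembly genes 14 log2 changes were above 0 (48.3% over all genes tested), with a median of 0.14. The median was 0.21 without IGF-1 replicate 5, and 11 of the 18 then rose, against 5.49% of all genes tested.

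In the processing step, no gene passed the edgeR test with all libraries. Before adjustment, 4 of the 16 were higher and 0 lower, against 7.1% and 5.57% of all genes. These 4 were Utp4, Utp15, Wdr43 and Wdr75, the 4 members that in human cells belong to the t-UTP group of the small-subunit processome, which acts in both transcription and early cutting of the precursor. DESeq2 called Utp4 and Wdr43 higher. Utp4 had 122, 122 and 109 CPM in IGF-1 replicates 3, 4 and 5, and 93.7 and 95.01 CPM in the controls. Wdr43 had 250.1, 251 and 225 CPM with IGF-1, against 194 and 200.2 CPM in the controls. In both genes replicate 5 lay between replicates 3 and 4 and the controls.

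Utp15 had 85.9, 80.5 and 82.7 CPM with IGF-1 and 65.0 and 71.9 CPM in the controls. For Wdr75 the values were 111, 109 and 99.9 CPM with IGF-1, against 90.9 and 90.2 CPM in the controls. All 4 t-UTP members thus had every IGF-1 library above both controls, as did 20.2% of genes with a mean of at least 10 CPM. Their log2 changes were close to each other, at 0.32, 0.30, 0.28 and 0.24 for Utp4, Wdr43, Utp15 and Wdr75 (SE 0.07 each). The edgeR adjusted p was 0.0732, 0.0915, 0.124 and 0.173 in the same order. Without IGF-1 replicate 5 all 4 rose, with log2 changes of 0.28 to 0.37.

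Of the box C/D snoRNPs, which guide methylation of rRNA, no member gene passed the test with all libraries. Fibrillarin (Fbl), the methyltransferase, had 188, 187 and 147 CPM in IGF-1 replicates 3, 4 and 5, and 184 and 185 CPM in the controls (log2 -0.09, edgeR adjusted p = 0.76). The scaffold gene Nop56 had 248, 250.2 and 238 CPM with IGF-1 against 227 and 235 CPM in the controls (log2 0.09). Its partner Nop58 had 259.7, 252 and 219 CPM with IGF-1, and 220.0 and 230.1 CPM in the controls (log2 0.11). The IGF-1 libraries were all above the controls for Nop56 only, by little, and replicate 5 was below both controls for Fbl and Nop58. Without replicate 5, Nop58 rose (log2 0.18, edgeR adjusted p = 7.68e-04), while Nop56 (0.11, adjusted p = 0.0794) and Fbl (0.02) did not pass.

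None of the 3 box H/ACA protein genes, whose complexes convert uridine to pseudouridine, passed the test. Dyskerin (Dkc1), their pseudouridine synthase, had 166, 149 and 139.8 CPM with IGF-1 and 147 and 150.1 CPM in the controls (log2 0.03). Nhp2, a core protein, had 159.6, 159 and 105 CPM with IGF-1, against 157 and 161 CPM in the controls. Its IGF-1 replicates 3 and 4 matched the controls, and the lowest log2 change of the 44 genes (-0.17, SE 0.15, edgeR adjusted p = 0.671) was 0.002 without replicate 5. Gar1 was at -0.005 with all libraries and 0.13 without replicate 5, and neither value passed. The snoRNP chaperone gene Nolc1 had 220.2, 204 and 188 CPM with IGF-1 and 186 and 184 CPM in the controls (log2 0.14), and it rose without replicate 5 (0.20, adjusted p = 6.92e-04).

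The remaining processing genes were Noc4l (log2 0.16), its partner Nop14 (0.12), the U3 snoRNP gene Rrp9 (0.08), the helicase gene Ddx10 (0.02) and Utp20 (-0.05). Noc4l had separate groups, and the other 4 overlapped. Only Nop14 among these 5 passed without IGF-1 replicate 5 (0.20, edgeR adjusted p = 0.00736), and DESeq2 without that library did not call it. The median of the 16 processing genes was 0.10 with all libraries and 0.17 without replicate 5, when 7 rose (5.49% of all genes).

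Genes of the polymerase I step likewise gave 0 calls by edgeR with all libraries. Before adjustment, 4 of 10 were higher and 0 lower (7.1% and 5.57% of all genes). DESeq2 called 1 higher (1.39% of the genes it tested). The gene that DESeq2 called was Ddx21, a nucleolar helicase that in human cells binds ribosomal DNA and snoRNAs. Ddx21 had 392, 378 and 357 CPM in IGF-1 replicates 3, 4 and 5, against 304 and 303 CPM in the controls, a log2 change of 0.31 (SE 0.06, edgeR adjusted p = 0.062, DESeq2 adjusted p = 0.00611). Every IGF-1 library was above the controls by far more than the controls differed from each other.

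None of the 4 polymerase I subunit genes passed with all libraries. The second largest subunit gene, Polr1b, had 68.7, 66.8 and 70.8 CPM with IGF-1 and 61.4 and 56.7 CPM in the controls (log2 0.22, edgeR adjusted p = 0.227). The largest subunit gene, Polr1a, had 180.0, 193 and 174 CPM with IGF-1, against 188 and 184 CPM in the controls (log2 -0.03). For Polr1b the groups were separate, and for Polr1a they overlapped. Polr1e was at 0.18 and Polr1c, whose protein is shared with RNA polymerase III, at -0.04. Without IGF-1 replicate 5, Polr1b (0.20) and Polr1e (0.25) rose by edgeR, and Polr1a (0.005) and Polr1c (-0.01) did not pass. DESeq2 without that library called neither Polr1b (adjusted p = 0.290) nor Polr1e (adjusted p = 0.295).

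Among the factors that load or open the polymerase, Ubtf, which encodes the ribosomal DNA binding protein UBF, had 201, 204 and 206 CPM with IGF-1 and 179 and 175 CPM in the controls. Rrn3, the initiation factor TIF-IA and a known target of growth factor kinases, had 81.4, 83.3 and 80.3 CPM with IGF-1 against 72.7 and 72.5 CPM in the controls. Tcof1, the gene of treacle, had 95.5, 93.7 and 79.3 CPM with IGF-1, and 92.3 and 76.7 CPM in the controls. Ubtf and Rrn3 had separate groups with little spread within them, whereas the Tcof1 controls differed by 0.27 on the log2 scale. The log2 changes were 0.20, 0.17 and 0.08 for Ubtf, Rrn3 and Tcof1 (edgeR adjusted p of 0.173, 0.299 and 0.772). Ubtf (0.19) and Rrn3 (0.18) rose without replicate 5 by edgeR, and Tcof1 (0.16) did not pass. DESeq2 without that library called Ubtf (adjusted p = 0.0136) but not Rrn3 (adjusted p = 0.257).

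Ncl, the gene of nucleolin, had the highest summed count of the 44, although Npm1 was higher in control replicate 2, with 1462, 1388 and 1146 CPM in IGF-1 replicates 3, 4 and 5 and 1401 and 1390.4 CPM in the controls (log2 -0.07). Mybbp1a, a nucleolar Myb-binding protein gene, was at 0.009 with all libraries, and it rose without replicate 5 (0.12, edgeR adjusted p = 0.0174). DESeq2 without that library did not call Mybbp1a (adjusted p = 0.104). The median of the 10 polymerase I genes was 0.13, and 0.17 without replicate 5, when 6 rose by edgeR (5.49% of all genes). Of these 6, DESeq2 without that library called only Ubtf and Ddx21.

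Per kilobase of coding sequence, Npm1 was the most abundant member, at 1436 CPM per kilobase with IGF-1 and 1581 in the controls. Ncl followed at 628 with IGF-1 and 658 in the controls, and Nhp2 at 308 and 346. By this measure Rrp12 was the least abundant, at 8.75 CPM per kilobase with IGF-1 and 7.68 in the controls. The ranks depend on the length used, as Wdr12 has 1269 coding bases in a transcript of 10012 bases and Ncl 2121 in 8202. The 3 most abundant members by coding length had log2 changes below 0 with all libraries, none of which passed. Without IGF-1 replicate 5 these were -0.02 for Npm1, 0.03 for Ncl and 0.002 for Nhp2. The 3 genes that rose lay between 51.1 and 83.3 CPM per kilobase with IGF-1.

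Spread within the groups shows how much of these differences replicate libraries give. Over the 44 genes, log2 differences had an SD of 0.06 between IGF-1 replicates 4 and 3 and of 0.09 between the controls, with medians of -0.01 in each. Against the mean of IGF-1 replicates 3 and 4, replicate 5 had a median of -0.17 (SD 0.15). There, 41 of 44 members were lower, as were 7947 of all 15919 genes tested. The 3 members that were not lower were Ubtf (0.03), Polr1b (0.06) and Rrp1b (0.15). The deepest were Nhp2 (-0.60), Nop16 (-0.46), Gar1 (-0.46) and Npm1 (-0.40), all with coding sequences under 1000 bases. Next came Bop1 (-0.39) and Mybbp1a (-0.38), with longer coding sequences of 2196 and 4032 bases.

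**Figure D3:**
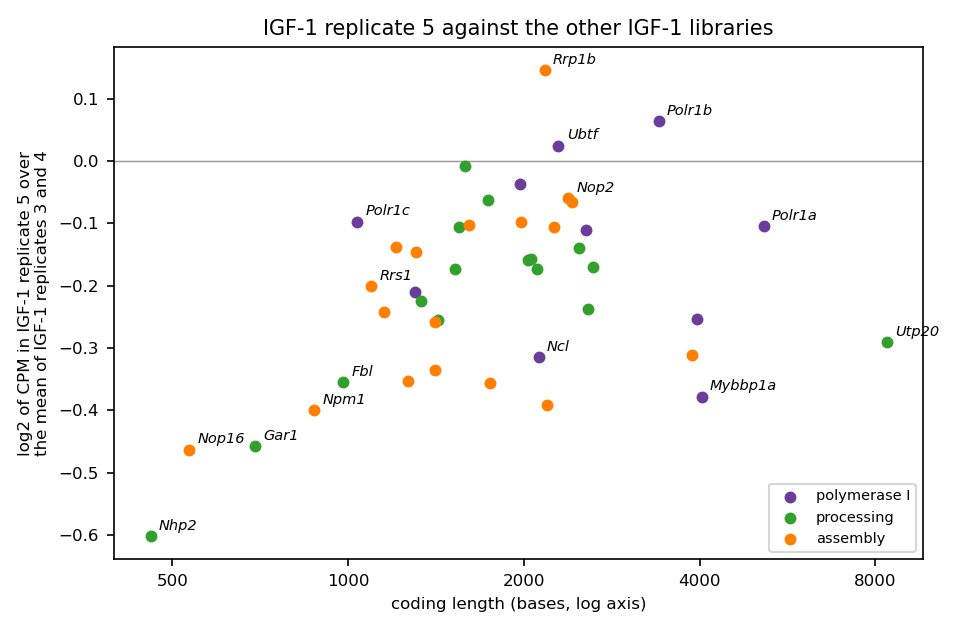
Each point is 1 of the 44 genes, placed by coding length (bases, log axis) and by the log2 of its CPM in IGF-1 replicate 5 over the mean of IGF-1 replicates 3 and 4, coloured by step. Of the 44 genes 41 lie below 0, and Nhp2, Nop16, Gar1 and Npm1, with short coding sequences, lie lowest. Bop1 and Mybbp1a, with longer coding sequences, lie next.

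Across the 44 members, this difference of replicate 5 correlated with log2 coding length at r = 0.40 (Spearman rho 0.33) and with log2 transcript length at r = 0.28 (rho 0.28), and across 9627 genes of at least 10 CPM with log2 transcript length at r = 0.39 (rho 0.38). The genes share the same libraries and are not independent replicates. Over those 9627 genes, the difference between replicates 4 and 3 gave r = 0.05. With an offset for the length trend of each library, 4 members rose (Rrs1, Rrp1b, Nop2 and Utp4), 0 fell, and the median was 0.14.

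Genes of cytosolic ribosomal proteins, whose products the nucleolar factors assemble, lay on the other side of 0 from most members. Of 79 tested, 0 had a log2 change above 0 (48.3% of all genes had), with a median of -0.19. By edgeR or DESeq2 0 passed (0 higher and 4 lower by edgeR before adjustment, where 5.57% of all genes were lower). Set against the control mean, IGF-1 replicate 3 had a median of -0.04, replicate 4 of -0.07 and replicate 5 of -0.48. In 50 of the 79 every IGF-1 library lay below both controls, and in 0 above both. Of all genes tested, 16.9% lay below and 16.2% above in this way. Without replicate 5 the median was -0.06, and 3 of the 79 were above 0 (7555 of all 15573 genes were). In that fit 0 were called higher and 7 lower by edgeR, where 3.65% of all genes were lower. These genes took 3.91% of counts in IGF-1 replicate 3, 3.85% in replicate 4 and 3.04% in replicate 5, against 4.02% and 4.13% in the controls, and the part of RNA quality in these differences was not tested.

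**Figure D4:**
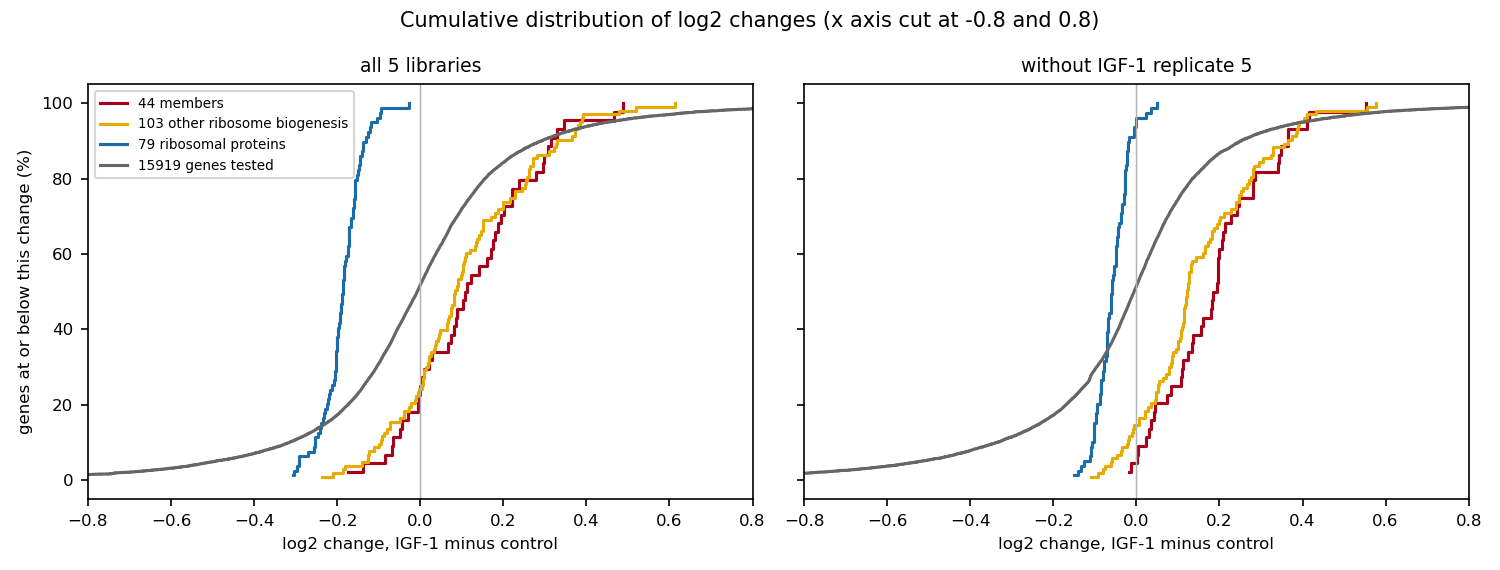
Cumulative percent of genes at or below each log2 change (IGF-1 minus control; axis cut at -0.8 and 0.8), with all libraries (left) and without IGF-1 replicate 5 (right). Members and the other ribosome biogenesis genes lie right of all tested genes (medians 0.11, 0.08 and -0.01 at left), and the ribosomal protein genes lie left of them (-0.19).

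Beyond the 44, a list of 103 other ribosome biogenesis genes was tested, and 7 rose and 0 fell by edgeR (32 higher and 1 lower before adjustment, 8 and 0 by DESeq2). Of all genes tested, 0.685% were higher and 0.339% lower by edgeR (7.1% and 5.57% before adjustment). By DESeq2 the shares were 1.39% and 0.581%. The median log2 change was 0.08, and 78 of 103 were above 0, against 48.3% of all genes tested. Urb1, whose yeast homologue acts in early large-subunit assembly, had 39.4, 39.1 and 42.1 CPM in IGF-1 replicates 3, 4 and 5, and 26.1 and 26.5 CPM in the controls (log2 0.61, SE 0.08, edgeR adjusted p = 0.0109). Its yeast partner's homologue Urb2 rose by 0.48 (adjusted p = 0.0183). The other 5 were Nmd3, the export adaptor of the large subunit (0.39), Mak16 (0.39), Utp18 of the small-subunit processome (0.38), Nol9, a kinase that acts on cut ends of the precursor (0.37), and Heatr1, a further t-UTP gene in human (0.32). In all 7, which were picked by the test, the IGF-1 libraries lay above both controls. Replicate 5 was the highest library for Urb1 and Urb2. Nol11, also a t-UTP gene in human, did not pass (0.10, edgeR adjusted p = 0.529), with 125, 128 and 121 CPM in IGF-1 replicates 3, 4 and 5 and 113 and 119 CPM in the controls.

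Without IGF-1 replicate 5, 36 of the 103 rose and 0 fell, against 5.49% and 3.65% of all genes tested. The median log2 change of the 103 was 0.090 without control replicate 1 and 0.097 without control replicate 2. Without IGF-1 replicate 3, 0 were called (0.186% of all genes), and without replicate 4, 2 were called (0.224%). By step, the 7 comprised 0 of 10 polymerase I genes, 2 of 41 processing genes and 5 of 52 assembly genes.

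Myc, whose product is a known activator of this pathway, had 265, 261 and 265 CPM in IGF-1 replicates 3, 4 and 5, against 242 and 228 CPM in the controls. All IGF-1 libraries were above the controls, and the log2 change of 0.17 (SE 0.06) did not pass with all libraries (edgeR adjusted p = 0.28). It rose without replicate 5 (0.16, adjusted p = 0.00311).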

How the data were processed

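The authors deposited raw counts of reads per gene symbol, 1 table per library. The submitters' processing notes list build GRCm39 with STAR 2.7.9a, cutadapt 3.4, DESeq2 1.28.1 and featureCounts 2.0.1, without roles, settings or annotation. Paralogs, pseudogenes and antisense genes may share reads.

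Genes were filtered with filterByExpr (minimum count 10, total 15), scaled with TMM and tested in R 4.3.3 with edgeR 4.0.16 (quasi-likelihood F-test, two-sided) with Benjamini-Hochberg adjustment over all 15919 genes. SE is the log2 change over the square root of F. Alternatives used DESeq2 1.42.0 and limma 3.58.1. The fit was tested on simulated data. Every pair of libraries differed by more than sampling noise (chi-square per degree of freedom at least 2.29). Lengths came from GENCODE M21 (97.5% of tested genes matched).

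The members and lists were chosen with earlier results of these data known. By rule, all members are named, and CPM in every library are given for members past the threshold, for those past it without IGF-1 replicate 5 with separate groups, for core genes of each step, and for the extremes of count and change. CPM of Rrp12 and Npm1, and Nol11, were added after their values were seen. Beyond the members, called genes of the other list and Myc are named. Of the other 103 genes 1 was found by an older symbol. Numbers 1 to 5 name libraries and pair none.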

Additional observations from a re-analysis of the deposited data

How the results depend on the processing

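The count of 3 members that rose was also 3 with RLE factors (0.685% of all genes higher), total counts (0.528%) and limma-voom (0.521%). It was 4 with the length offset (0.961% of all genes higher). It was 9 without the filter on low counts (1.31% of all genes higher), 6 by DESeq2 (1.39%) and 13 with sample quality weights (3.02%). Leaving out 1 library gave 0 to 24 (0 to 5.49% of all genes), and DESeq2 without IGF-1 replicate 5 gave 16 (2.91%). Of the other 103 genes, 7 rose (0.685% of all genes), or 16 without the filter (1.31%) and 22 with quality weights (3.02%). With 1 IGF-1 library left out, 0 to 36 of the 103 rose (0.186% to 5.49% of all genes). By DESeq2 without IGF-1 replicate 5, 16 of them rose (2.91%). In every one of these settings 0 members fell. The members' median was 0.07 to 0.19 with 1 library left out. Some log2 changes turned sign, all of genes not called with all libraries. With DESeq2 without IGF-1 replicate 5 these were Polr1a (0.00909), Ncl (0.0344), Fbl (0.0275), Gar1 (0.14), Nhp2 (0.00617), Utp20 (0.0457), Pes1 (0.0493), Wdr12 (0.11) and Nop16 (0.14). With the length offset these were Polr1c (0.00695), Mybbp1a (-0.00338), Gar1 (0.0465) and Nop16 (0.032). With limma-voom these were Mybbp1a (-0.00169). With DESeq2 these were Gar1 (0.0013), Wdr12 (0.00472) and Nop16 (0.00281). With quality weights these were Gar1 (0.0871), Utp20 (0.0129), Pes1 (0.0102), Wdr12 (0.0752) and Nop16 (0.0912). With RLE factors these were Wdr12 (0.00204). With no filter these were Wdr12 (0.0026) and Nop16 (4.97e-05). Leaving out 1 library at a time gave Polr1a (-0.0724 to 0.0048), Polr1c (-0.14 to 0.0621), Tcof1 (-0.045 to 0.22), Mybbp1a (-0.0856 to 0.12), Ncl (-0.14 to 0.0301), Fbl (-0.14 to 0.0231), Dkc1 (-0.0391 to 0.0832), Gar1 (-0.10 to 0.13), Nhp2 (-0.27 to 0.00177), Utp20 (-0.11 to 0.0414), Ddx10 (-0.0233 to 0.0746), Pes1 (-0.13 to 0.0449), Wdr12 (-0.075 to 0.11), Nop16 (-0.11 to 0.14) and Ddx18 (-0.0139 to 0.0349). The cause of these differences was not tested. The DESeq2 fit without replicate 5 and the length offset were added after seeing the data. When either control is left out, the spread of the lone control is taken from the IGF-1 libraries. No paired analysis was possible because the groups share no replicate number. The scaling factors moved the median of all genes by at most 0.003.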

Other observations

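In the GENCODE M21 annotation, 7 of the 44 genes hold annotated snoRNA genes within their span on the same strand, with 5 in Nop56, 4 in Nop58, 3 each in Ncl, Wdr43 and Gnl3, 2 in Ppan and 1 in Dkc1. The median log2 change was 0.11 in these 7 genes and 0.11 in the other 37. Counts of spliced host transcripts do not measure the snoRNAs.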
